A study of Mus musculus with 71 samples.

Results

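The 10 named genes of glutathione synthesis and use were followed across the 6 labelled groups of mice with or without hypochlorous acid (HOCl)-induced systemic sclerosis (SSc). The members were taken by gene symbol, and all 10 were found among the 10508 genes of the table of normalised values. Gclc and Gclm encode the catalytic and the modifier subunit of glutamate-cysteine ligase, and Gss encodes glutathione synthetase. Gsr encodes glutathione reductase, and G6pdx encodes glucose-6-phosphate dehydrogenase. Gpx1 and Gpx4 encode peroxidases, Gsto1 and Mgst1 encode transferases, and Glrx encodes a glutaredoxin.

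Glutathione is a tripeptide that is made from glutamate, cysteine and glycine by glutamate-cysteine ligase, the rate-limiting step, and then by glutathione synthetase. Peroxidases use it to reduce peroxides, glutaredoxins and transferases use it on protein thiols and on electrophiles, and glutathione reductase restores it with NADPH from the pentose phosphate pathway. Red cells rely on this cycle to protect haemoglobin and the membrane, and neutrophils are themselves a source of HOCl.

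Terminal whole blood was taken from female Balb/c AnNRj mice, and libraries were made after poly A selection and globin depletion. The CTRL group comprised 11 mice that received PBS, and the HOCl group comprised 12 mice with intradermal injections of HOCl. Every mouse of the 4 treated groups (n = 12 each) also received HOCl, together with E07 or D11, monoclonal antibodies (mAb) against galectin-3 given subcutaneously, or with D06 or BPR21, agents that the labels name without a description. Control and experimental groups were kept in separate cages, so cage and group cannot be told apart. The genotype field of the control mice reads HOCL, as in all other mice, and the groups were therefore taken from the sample titles.

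The libraries held 11932855 to 15948972 counts on genes, with a median of 13719277. The level of a gene is given as its vst value, a variance-stabilised count on a log2 scale on which a difference of 1 corresponds to a doubling for genes with many counts. HOCl mouse 8 had counts but no vst values, which left 11 HOCl mice on the vst scale against 12 in tests of counts. Markers of 9 lists (8 cell types and proliferation) were measured, and 39 genes of red cell precursors, the erythroid list, took a share of all counts that moved with the groups. That share was 8.49% ± 2.83 (SD, n = 11) in CTRL, 13.6% ± 2.92 (n = 12) in HOCl, 8.01% ± 1.81 (n = 12) in E07, 10.5% ± 3.17 (n = 12) in D11, 12.1% ± 3.39 (n = 12) in D06 and 10.8% ± 2.39 (n = 12) in BPR21 mice. In whole blood, fewer cells of a type and less RNA per cell cannot be told apart. CTRL mouse 12 had the lowest correlation with its own group mean (r = 0.946) and an erythroid score of 0.71, against a group mean of -0.67 ± 0.66 (SD, n = 11). The score averages, over the 38 list genes in the vst table, vst values turned into z-scores.

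The promoters of the members were searched for the core of the antioxidant response element (TGACNNNGC), the sequence bound by the oxidative stress factor NRF2, because glutathione genes are its textbook targets. RefSeq promoters (GRCm38.p6 table, 250 bases before to 50 after a gene start) were given for 8 of the 10 members, and none was found for Gclc or Gsr. The core was found on either strand in 3 of the 13 promoters of these members, and in 12.4% of all 32851 promoters. The 3 belong to different members. For Gclm and G6pdx only 1 promoter each was given, with a start 80 and 333 bases from the canonical start. The stretches around these 3 matches are shown on the strand of the motif, with the core in capitals and 10 bases on each side. They were placed in GRCm39 by exact match, Gclm at chr3:122039062-122039090 (minus strand), Mgst1 at chr6:138117459-138117487 (minus strand) and G6pdx at chrX:73472525-73472553 (plus strand).
Gclm: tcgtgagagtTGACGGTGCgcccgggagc
Mgst1: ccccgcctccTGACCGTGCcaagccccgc
G6pdx: gcgtgtgcttTGACTGAGCtgacccgcct
The match of Gclm started 134 bases before its RefSeq start, and those of Mgst1 and G6pdx started 56 and 57 bases before theirs. The Mgst1 promoter with the match was not the one nearest to the start of the canonical transcript. The GATA element AGATAA, named for a family of factors that includes the erythroid factor GATA1, was found in 0 of the 13 member promoters and in 11.2% of all promoters. Only this spelling was searched. Other spellings around GATA do occur in promoters of Gpx4, Mgst1 and G6pdx, so the count does not show that GATA elements are absent. Of the 3 members with a core match, Gclm and G6pdx were lower in E07 than in HOCl mice (log2 fold change -1.12 and -0.50, FDR 0.000411 and 0.00276, limma). Mgst1 did not pass that test (-0.23, FDR 0.218). Between HOCl and CTRL mice only Gclm of these 3 passed (1.03, FDR 0.00673, limma). A link between the core and these levels was not tested.

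Levels between genes were compared as reads per kilobase of annotated exon, scaled to library size as in RPKM. In CTRL mice Gpx1 stood highest, with a median of 3598 (2059 to 10394), followed by Gpx4, with a median of 298 (266 to 350). The ranges of these genes did not overlap each other or those of the other members. Mgst1 (median 40.2, 20.8 to 71.0) and Gclm (28.3, 21.6 to 34.5) came next, and their ranges overlapped. Gsto1 (16.0, 2.90 to 46.3), G6pdx (15.2, 5.25 to 22.7) and Glrx (14.1, 8.89 to 24.2) could not be ordered beyond their spread. Their ranges also overlapped those of Mgst1 and Gclm. Gsr (3.82, 2.82 to 5.24) and Gclc (3.63, 1.87 to 5.10) were lower by their medians and overlapped each other and the range of Gsto1. Gss (1.49, 1.10 to 1.84) lay below both Gsr and Gclc in its whole range. The catalytic subunit Gclc thus had fewer reads per length than its modifier Gclm in every control mouse.

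Differences over the groups were tested with limma over all 10508 genes. The moderated F test over the 6 groups passed an FDR (Benjamini-Hochberg) of 0.05 for 5 of the 10 members, while 18.3% of all genes passed. These were Gclm (FDR 0.00013), Gpx1 (0.000149), Gpx4 (0.000212), Glrx (0.00192) and G6pdx (0.0173). Gclc, Gss, Gsr, Gsto1 and Mgst1 did not pass, with FDR values from 0.24 to 0.752. Among the 4 treated groups alone, Gclm, Gpx1, Gpx4 and Glrx passed (FDR 0.00523, 0.00523, 0.00619 and 0.0116, limma), against 11.0% of all genes, and G6pdx did not (FDR 0.59).

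**Figure D1:**
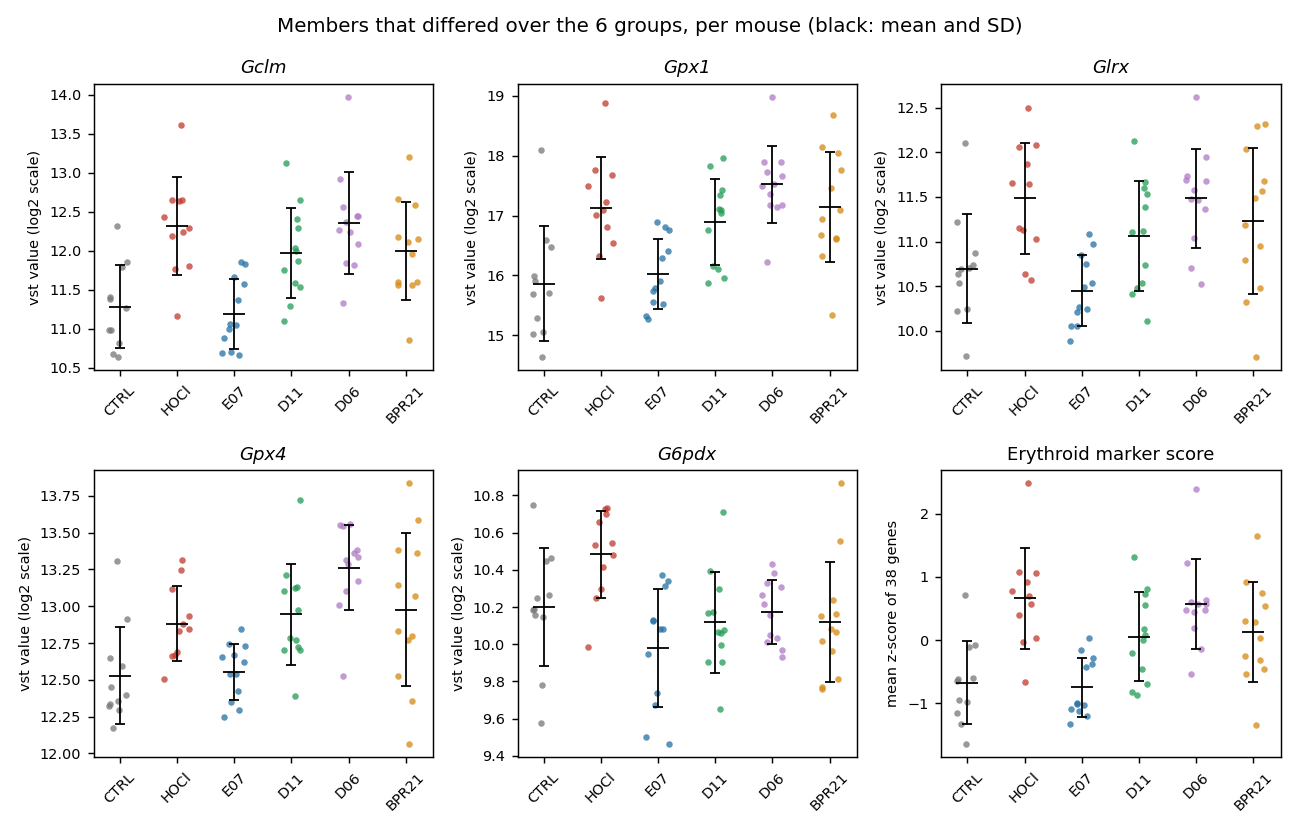
Vst values (log2 scale) of the 5 members that differed over the 6 groups, 1 point per mouse, with the mean and SD in black, and the erythroid marker score (mean z-score of 38 genes) in the last panel. E07, D11, D06 and BPR21 are HOCl mice given that agent. Gclm, Gpx1 and Glrx were lowest in the CTRL and E07 groups, as was the erythroid score, while G6pdx was highest in HOCl mice.

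Between HOCl and CTRL mice, the modifier subunit Gclm, the peroxidase Gpx1 and the glutaredoxin Glrx were higher in HOCl mice, and no member was lower. These 3 of 10 members passed both an FDR of 0.05 and a fold of 1.3 (limma), while 4.79% of all genes were called higher. The median log2 fold change was 0.28 over the 10 members and -0.016 over all genes. Of the 38 erythroid markers, 31 were called higher as well (median 1.19), as were 5 of 10 platelet, 4 of 5 proliferation and 3 of 14 neutrophil markers. No member is on a marker list.

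Gclm (ENSMUSG00000028124, GRCm39 chromosome 3, 122039126 to 122065061) ranged from 10.63 to 12.32 in CTRL mice, with a median of 11.26, and from 11.17 to 13.61 in HOCl mice, with a median of 12.30. The ranges overlapped, and 10 of 11 HOCl mice lay above the CTRL median and 5 of 11 above the highest control. The difference on the log2 scale was 1.03 (SE 0.22, 95% CI 0.57 to 1.49, FDR 0.00673, limma). The highest control was CTRL mouse 12, which was also the highest control for Gpx1, Gpx4 and Glrx.

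Gpx1 (ENSMUSG00000063856, chromosome 9, 108216102 to 108217546), the cytosolic selenoperoxidase that is abundant in red cells, ranged from 14.63 to 18.10 in CTRL mice, with a median of 15.71. In HOCl mice it ranged from 15.63 to 18.87, with a median of 17.10. 10 of 11 HOCl mice lay above the control median, but only 1 lay above CTRL mouse 12. The log2 fold change was 1.27 (SE 0.34, 95% CI 0.57 to 1.97, FDR 0.0246, limma).

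Glrx (ENSMUSG00000021591, chromosome 13, 75987974 to 76002178), which removes glutathione from protein thiols, ranged from 9.71 to 12.10 in CTRL mice (median 10.69) and from 10.57 to 12.50 in HOCl mice (median 11.64). Of the HOCl mice, 9 of 11 lay above the control median, and the log2 fold change was 0.79 (SE 0.23, FDR 0.0457, limma). This call was lost in 14 of 22 fits that left out 1 mouse, with FDR values of at most 0.0909. Those mice were CTRL 1, 2, 5, 7, 8, 9, 10 and 11 and HOCl 3, 5, 6, 7, 9 and 11. The call of Gpx1 was lost without CTRL mouse 1, 7 or 8 or HOCl mouse 6, with FDR values between 0.0503 and 0.0535, and that of Gclm was retained in all 22 fits.

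Gpx4 (ENSMUSG00000075706, chromosome 10, 79883000 to 79892273), the peroxidase of membrane lipid hydroperoxides, was not called in this comparison. Its median was 12.40 (12.17 to 13.31) in CTRL and 12.84 (12.51 to 13.31) in HOCl mice, with 11 of 11 HOCl mice above the control median (log2 fold change 0.35, FDR 0.0861, limma). It passed both thresholds without CTRL mouse 12 (FDR 0.00643) or CTRL mouse 4 (FDR 0.0485). The log2 fold changes of G6pdx and Gsr were 0.28 (FDR 0.168) and 0.23 (FDR 0.182), with 10 of 11 HOCl mice above the control median for each gene.

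The remaining 4 members differed by less than the spread between mice. Gclc (ENSMUSG00000032350, chromosome 9, 77661797 to 77701770) had a median of 8.59 (8.08 to 8.89) in CTRL and 8.45 (8.23 to 8.84) in HOCl mice, with a log2 fold change of -0.05 (95% CI -0.23 to 0.14). Gss (chromosome 2, 155405096 to 155455505) had a log2 fold change of -0.03 (95% CI -0.27 to 0.20), and Mgst1 (chromosome 6, 138117314 to 138133774) one of 0.04 (95% CI -0.24 to 0.32). Gsto1 (chromosome 19, 47842686 to 47853229) had the widest spread of these 4, from 7.95 to 10.73 in CTRL mice alone (log2 fold change 0.28, 95% CI -0.31 to 0.88). Exons of the protein-coding genes Acss2 and Myh7b overlap those of Gss on the opposite strand, and exons of Ikbkg overlap those of G6pdx. Gclm, Gpx1, Gpx4, Gsto1 and Gss also share exon bases with noncoding genes on the opposite strand, among them Gm17494 for Gclm, Gm57050 for Gpx1 and Gm65896 for Gpx4. The pseudogene Gm6061 lies within exon bases of Gclm, and a small nucleolar RNA gene within those of Gsr, both on the same strand. The kit is strand-specific, but the strand setting of the counting is not given in the sources used here, so the reads of such partners may not be told apart.

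**Figure D2:**
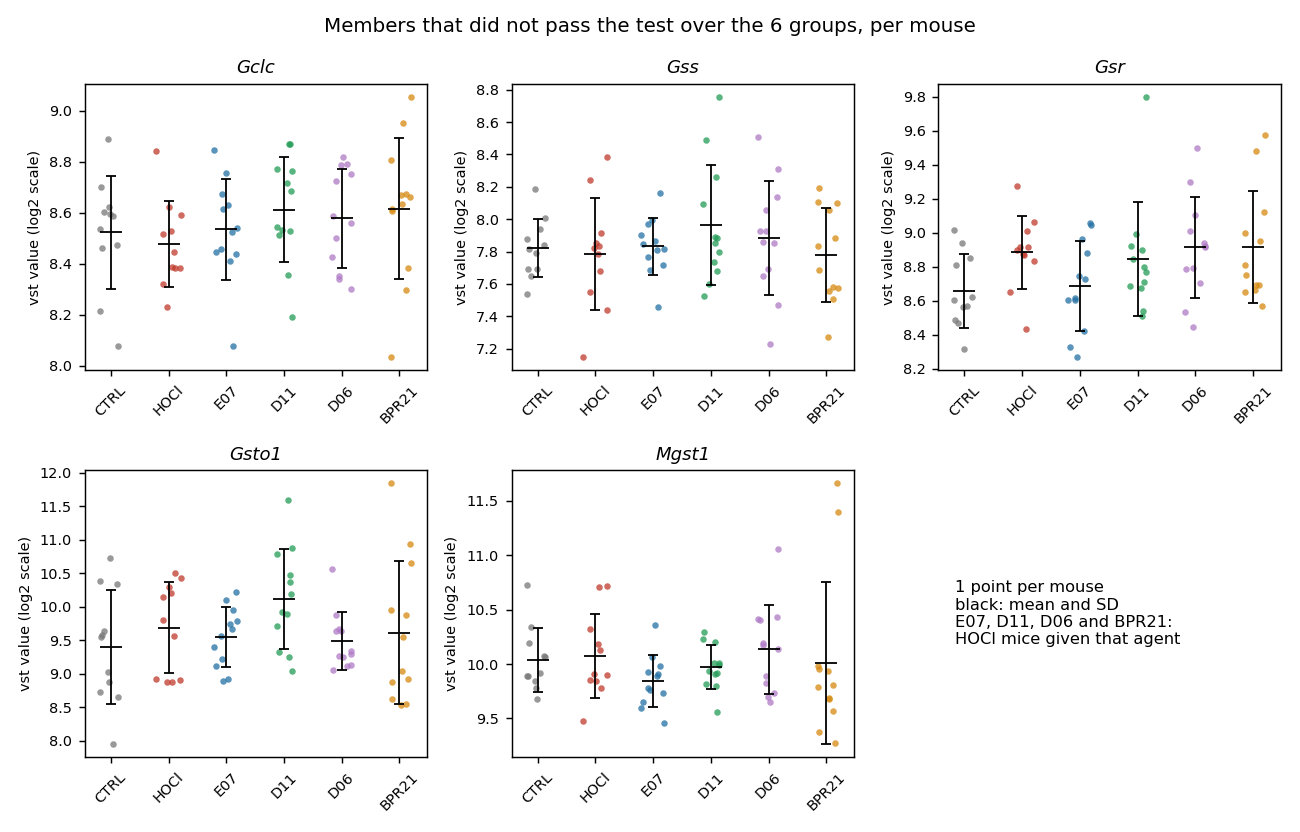
Vst values (log2 scale) of the 5 members that did not pass the F test over the 6 groups, 1 point per mouse, with the mean and SD in black. Gclc, Gss, Gsr and Mgst1 overlapped in all groups, and single mice of the BPR21 and D11 groups stood highest for Gsto1 (11.84 and 11.59).

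The size of these differences depended on the scaling and on the erythroid score. With edgeR and with DESeq2 on the counts, only Gclm was called in HOCl against CTRL mice, and the edgeR FDR was 0.0794 for Gpx1 and 0.0851 for Glrx. With libraries scaled to their total counts, all genes together shifted by a median of -0.47 (log2). On that scale Gclm (0.58) and Gpx1 (0.79) were still called higher, Glrx was not (0.35, FDR 0.104), and Gclc (-0.52), Gss (-0.51) and Mgst1 (-0.44) were called lower, each close to the shift of all genes. With the erythroid score as a covariate, 0 of the 10 members and 1 of all genes were called (limma). The log2 fold change of Gclm was then 0.0001, and that of Gpx1 was -0.31.

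A ratio of genes within a library does not depend on the scaling of the libraries. The per-length ratio of Gclm to Gclc had a median of 6.81 (4.23 to 18.5) in the 11 CTRL mice and of 15.9 (6.30 to 45.5) in the 12 HOCl mice. Of the HOCl mice, 11 of 12 lay above the control median, and the ratio of geometric means was 2.11 (two-sided permutation test with 100000 resamples, p = 0.00142, adjusted over 12 ratio comparisons p = 0.00852). In E07 mice the median was 6.29 (3.55 to 18.4), and 11 of 12 mice had a ratio under the HOCl median (permutation test, adjusted p = 0.00528). The medians were 10.9 in D11, 16.1 in D06 and 10.1 in BPR21 mice, none of which passed the test against HOCl mice (permutation test, adjusted p = 0.202, 0.892 and 0.209). Between E07 and D11 mice, neither this ratio (log2 difference -0.70, adjusted permutation p = 0.06) nor that of Gpx1 to Gpx4 (-0.47, adjusted permutation p = 0.0749) passed. The ratio of Gpx1 to Gpx4 was 12.1 (5.88 to 33.6) in CTRL, 20.9 (9.28 to 59.7) in HOCl and 12.9 (7.70 to 22.8) in E07 mice by its medians. It differed between HOCl and CTRL mice and between E07 and HOCl mice (permutation test, adjusted p = 0.0211 for each). These ratios were chosen after the members' values were seen.

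Treatment with E07 mAb was compared with HOCl alone to see which members moved under the antibody. Gclm, Gpx1, Glrx and G6pdx were lower in E07 mice, and in 12 of 12 E07 mice each of these 4 genes was under the median of HOCl mice. Of the members, 4 of 10 were called lower and 0 higher, while 7.01% of all genes were called lower. Over the members the median log2 fold change was -0.28, and over all genes it was 0.022. Of the markers, 34 of 38 erythroid (median -1.17), 8 of 10 platelet, 4 of 5 proliferation, 3 of 14 neutrophil and 2 of 13 monocyte genes were called lower, and 9 of 12 B cell and 2 of 5 eosinophil genes were called higher. HOCl mice are shared by this comparison and the preceding one.

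Gclm ranged from 10.66 to 11.86 in E07 mice, with a median of 11.06, and 7 of 12 mice lay below the lowest HOCl mouse (11.17). The log2 fold change was -1.12 (SE 0.20, 95% CI -1.53 to -0.71, FDR 0.000411, limma). Glrx ranged from 9.88 to 11.09 (median 10.38), with 8 of 12 E07 mice below the lowest HOCl mouse and a log2 fold change of -1.03 (SE 0.19, FDR 0.000574, limma). For both genes the ranges of the groups still overlapped.

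Gpx1 ranged from 15.28 to 16.90 in E07 mice, with a median of 15.85, and its log2 fold change was -1.11 (SE 0.27, 95% CI -1.66 to -0.56, FDR 0.00566, limma). Every E07 mouse lay below the HOCl median of 17.10, and 4 of 12 lay below the lowest HOCl mouse. Gpx4 had a log2 fold change of -0.33 (FDR 0.0174, limma), which passed the FDR but not the fold of 1.3. In 11 of 12 E07 mice it was under the median of HOCl mice (12.25 to 12.84, median 12.58).

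G6pdx (ENSMUSG00000031400, chromosome X, 73449857 to 73472819), the enzyme that opens the pentose phosphate pathway, ranged from 9.99 to 10.73 in HOCl mice (median 10.53) and from 9.46 to 10.37 in E07 mice (median 10.08). Each E07 mouse was below the HOCl median, and 5 of 12 lay below the lowest HOCl mouse. On the log2 scale the difference was -0.50 (SE 0.11, 95% CI -0.73 to -0.27, FDR 0.00276, limma). Its level in CTRL mice (median 10.19, 9.58 to 10.75) overlapped both groups.

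The other 5 members were not called in E07 against HOCl mice. The log2 fold change of Gsr (ENSMUSG00000031584, chromosome 8, 34142551 to 34188192) was -0.20 (95% CI -0.40 to 0.01), and that of Mgst1 was -0.23 (95% CI -0.49 to 0.02). Gclc (0.06, 95% CI -0.11 to 0.22), Gss (0.05, 95% CI -0.17 to 0.27) and Gsto1 (-0.14, 95% CI -0.57 to 0.30) had intervals on both sides of 0. Of the ligase subunits, Gclm fell and Gclc did not pass the test. The difference between them was tested by the ratio given above, which was chosen after the members' values were seen. Within groups, r with the erythroid score was 0.98 for Gclm and -0.03 for Gclc. The part of that score in the ratio was not tested.

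The 4 calls of E07 against HOCl mice were retained with edgeR, with DESeq2, with all 6 groups in 1 fit and in each of 23 fits that left out 1 mouse. With total-count scaling, all genes together shifted by a median of 0.49 (log2). Gclm (-0.65), Gpx1 (-0.60) and Glrx (-0.59) were still called lower, G6pdx was not (-0.06, FDR 0.741), and Gclc (0.56) and Gss (0.55) were called higher. With the erythroid score as a covariate, 0 members and 0 of all genes were called by limma. The log2 fold changes were then 0.01 for Gclm, 0.42 for Gpx1, -0.05 for Glrx and -0.35 for G6pdx (FDR 0.416).

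**Figure D3:**
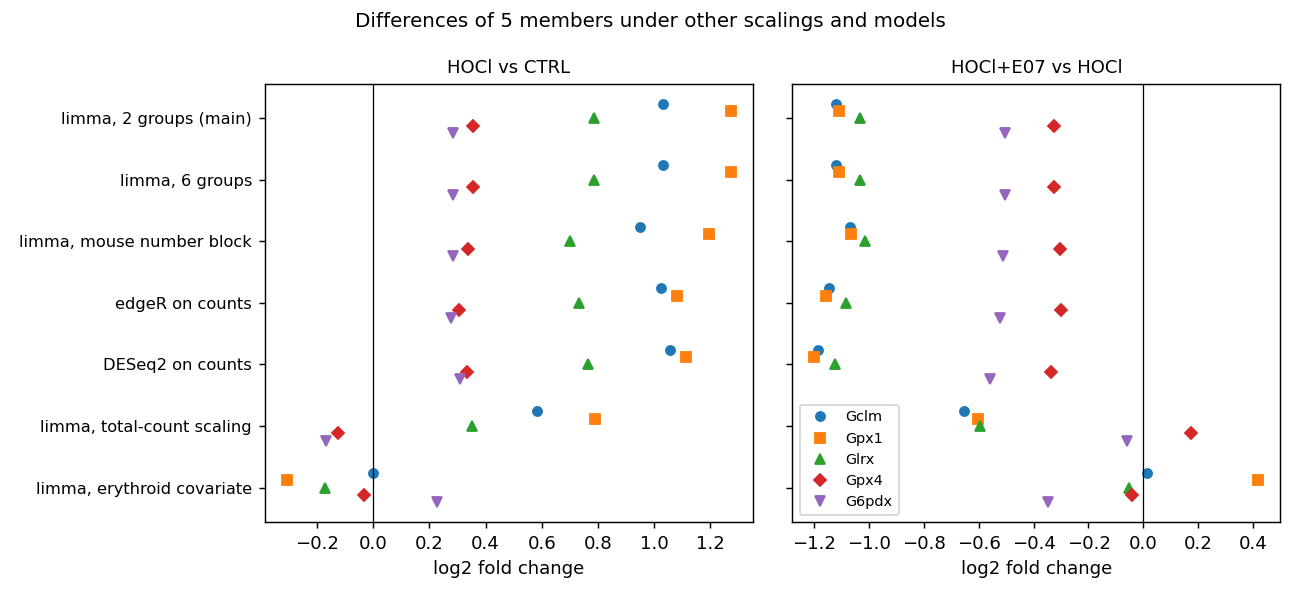
Log2 fold changes of 5 members in HOCl against CTRL mice (left) and E07 against HOCl mice (right), with 1 line of symbols for each model or scaling. Gclm, Gpx1 and Glrx kept their direction in all settings but the erythroid covariate, where Gpx1 was -0.31 and 0.42, whereas Gpx4 changed sign under total-count scaling (-0.12 and 0.17).

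Against HOCl alone, D11, D06 and BPR21 gave no call among the members. The share of all genes called was 0.0571% for D11, 0.133% for D06 and 0.638% for BPR21. Of the marker lists, 4 of 13 monocyte genes were called lower in BPR21 mice (median -0.55) and 1 of 13 in D06 mice, 1 of 5 eosinophil genes was called higher in D11 and in D06 mice, and 0 of 38 erythroid genes were called in any of these groups (limma), with 16 in D11, 0 in D06 and 14 in BPR21 mice at an unadjusted p under 0.05. At an unadjusted p under 0.05 (limma), 1 of 10 members differed in D11, 2 in D06 and 1 in BPR21 mice. Of all 10508 genes, 1483, 1338 and 1474 did so, a share near that of the members. edgeR called 0 members in each. DESeq2 called G6pdx in D11 mice (-0.41), Gpx4 in D06 mice (0.41) and 0 members in BPR21 mice. Among all genes it tested, DESeq2 called 63 higher and 91 lower in D11, 70 and 80 in D06, and 116 and 140 in BPR21 mice.

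G6pdx had a log2 fold change below 0 in each of these groups, with -0.37 in D11 (95% CI -0.58 to -0.15, FDR 0.125), -0.31 in D06 (95% CI -0.50 to -0.12, FDR 0.144) and -0.36 in BPR21 mice (95% CI -0.60 to -0.12, FDR 0.133). It lay below the HOCl median in 11 of 12 D11, 12 of 12 D06 and 10 of 12 BPR21 mice. The FDR of 0.05 over all genes was not reached, and the HOCl group is shared by these comparisons. Gclm (-0.34 in D11, 0.04 in D06, -0.31 in BPR21), Gpx1 (-0.24, 0.39 and 0.01) and Glrx (-0.42, 0.00 and -0.25) had 95% confidence intervals that included 0 in all 3 groups. Gpx4 was above the HOCl median in 11 of 12 D06 mice (log2 fold change 0.38, 95% CI 0.15 to 0.61, FDR 0.144).

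**Figure D4:**
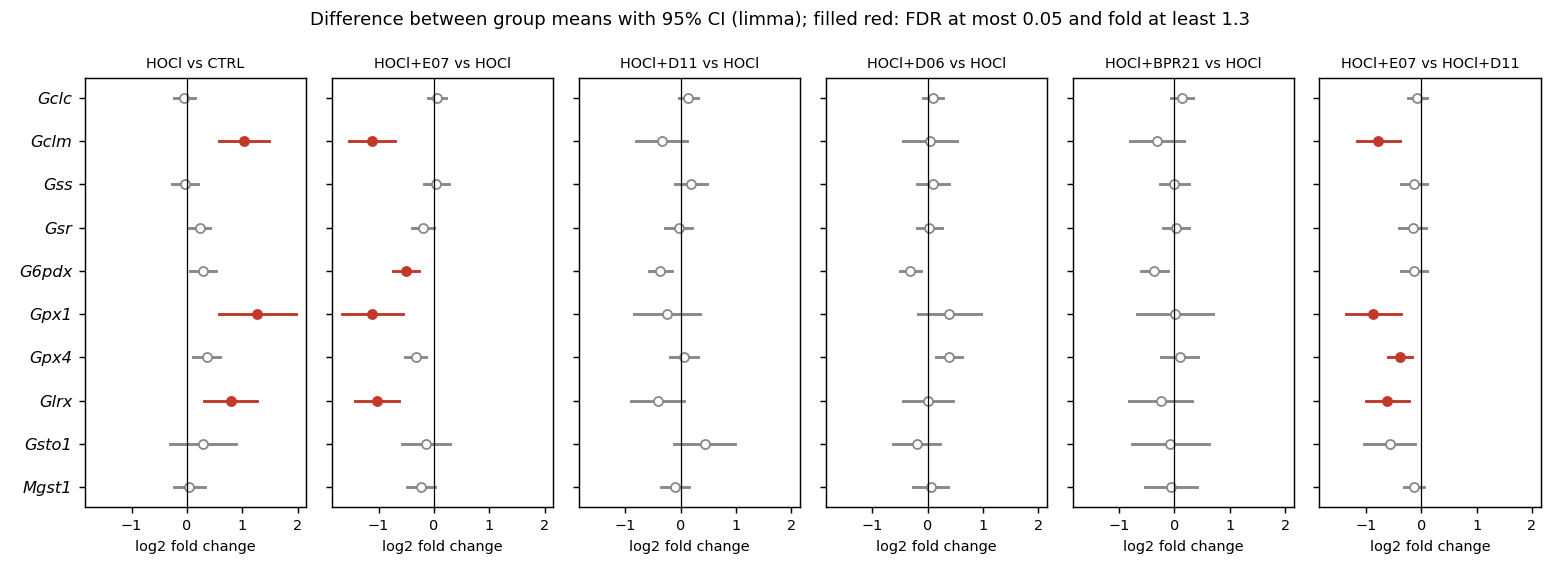
Log2 fold changes of the 10 members with 95% confidence intervals (limma) in 6 comparisons, filled red where both thresholds were passed. Calls were made for Gclm, Gpx1 and Glrx in HOCl against CTRL mice, for these and G6pdx in E07 against HOCl mice, and for Gclm, Gpx1, Gpx4 and Glrx in E07 against D11 mice, with none in the remaining comparisons.

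Each treated group was also compared with CTRL mice. E07 mice gave 0 calls among the members, where 0.00952% of all genes were called, and 0 members passed an unadjusted p under 0.05 (limma). edgeR and DESeq2 also called 0 members. Between E07 and CTRL mice, the log2 difference had a 95% confidence interval of -0.47 to 0.29 for Gclm, -0.43 to 0.75 for Gpx1 and -0.64 to 0.14 for Glrx. A p that misses the threshold leaves differences within these limits possible.

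D06 mice stood at the other end. Gclm, Gpx1, Gpx4 and Glrx were higher in D06 than in CTRL mice, 4 of 10 members, while 7.27% of all genes were called higher. Gpx4 ranged from 12.53 to 13.56 in D06 mice, with a median of 13.32, and 7 of 12 mice lay above the highest control (log2 fold change 0.74, SE 0.12, FDR 0.000998, limma). Gpx1 ranged from 16.23 to 18.99 (median 17.51), with a log2 fold change of 1.66 (SE 0.30, FDR 0.00117, limma), and 12 of 12 D06 mice lay above the control median. The log2 fold changes of Gclm (11.33 to 13.97, median 12.32) and Glrx (10.52 to 12.63, median 11.53) were 1.07 (FDR 0.00246) and 0.79 (FDR 0.0167, limma). The 4 calls were retained with edgeR and DESeq2 and in each of 23 fits without 1 mouse. Of the erythroid markers, 34 of 38 were called higher in this comparison too (median 1.10), as were 8 of 10 platelet, 4 of 5 eosinophil, 3 of 14 neutrophil and 2 of 5 proliferation markers, while 1 of 13 monocyte markers was called lower. With total-count scaling Gpx4 (0.18) and Glrx (0.27) were no longer called, and Gclc and G6pdx were called lower, as were 6748 of all genes. With the erythroid covariate 0 members were called, where 4 of all genes were called higher and 0 lower.

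D11 and BPR21 mice lay between these groups for Gclm and Gpx1, and 0 members were called against CTRL by limma, where 0.0761% and 0.504% of all genes were called. In each comparison, 4 of 10 members had an unadjusted p under 0.05, as did 1697 of all 10508 genes in D11 and 2095 in BPR21 mice (limma). edgeR called 0 members in each, and DESeq2 called Gclm in both, with log2 fold changes of 0.73 in D11 and 0.78 in BPR21 mice. Among all genes it tested, DESeq2 called 139 higher and 39 lower in D11, and 346 and 127 in BPR21 mice. The limma estimates for Gclm were 0.69 (FDR 0.121) and 0.72 (FDR 0.0962), and those for Gpx1 were 1.03 (FDR 0.12) and 1.28 (FDR 0.0702). BPR21 mice had the widest SD of the 6 groups for Gpx4 (0.52) and Glrx (0.82), and the spread was not tested.

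The E07 and D11 antibodies, both directed against galectin-3, were compared directly. Gclm, Gpx1, Gpx4 and Glrx were lower in E07 than in D11 mice, 4 of 10 members, while 4.27% of all genes were called lower. All 12 E07 mice lay below the D11 median for each of these genes. Of the erythroid markers, 16 of 38 were called lower in E07 than in D11 mice (median -0.70), as were 5 of 10 platelet and 2 of 5 proliferation markers, and 3 of 12 B cell markers were called higher. Gclm ranged from 11.10 to 13.13 in D11 mice (median 11.93), and 7 of 12 E07 mice lay below the lowest D11 mouse (log2 fold change -0.77, SE 0.19, FDR 0.0232, limma). The log2 fold change was -0.87 for Gpx1 (FDR 0.0309), -0.39 for Gpx4 (FDR 0.0316) and -0.62 for Glrx (FDR 0.0486, limma). edgeR and DESeq2 called these 4 and Gsto1 (limma log2 fold change -0.57, FDR 0.131). Among all genes tested, edgeR called 642 lower and 78 higher, and DESeq2 called 756 lower and 89 higher. With all 6 groups in 1 fit, 0 members were called (FDR 0.083 to 0.149), and 0 of all genes. With the erythroid covariate, 0 members and 0 of all genes were called as well. With total-count scaling only Gclm and Gpx1 were called, where 152 of all genes were called lower and 4512 higher. The call of Gclm was retained in 24 of 24 fits without 1 mouse, those of Gpx1 and Gpx4 in 14 and that of Glrx in 7. The call of Gpx1 was lost without D11 mouse 3, 9, 10 or 12 or E07 mouse 1, 4, 7, 8, 9 or 10. That of Gpx4 was lost, by the FDR or by the fold, without D11 mouse 3, 5, 6, 8 or 10 or E07 mouse 4, 8, 9, 10 or 11. That of Glrx was lost without D11 mouse 3, 4, 5, 6, 8, 9, 10 or 12 or E07 mouse 1, 2, 3, 4, 7, 8, 9, 10 or 11.

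Lgals3, which encodes galectin-3, the target of the antibodies, differed over the 6 groups (limma F test, FDR 0.00992). Its median was lowest in BPR21 mice (median 10.48, 9.94 to 11.23), against 11.09 (10.58 to 11.38) in HOCl and 10.88 (10.58 to 11.52) in CTRL mice. Lgals3 was not called between HOCl and CTRL mice (FDR 0.634) or between E07 and HOCl mice (FDR 0.246). It was also not called in BPR21 mice against HOCl (log2 fold change -0.52, FDR 0.0601) or CTRL mice (-0.40, FDR 0.112, limma).

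The members were then set against marker scores within groups, by the deviation of each of 70 mice from its group mean. Pearson's r and Spearman's rho were computed for 10 members and 9 lists, and p-values came from 100000 permutations within groups with Benjamini-Hochberg adjustment over the 90 relations. Gclm followed the erythroid score most closely (r = 0.98, rho = 0.96), and Gpx1 (r = 0.94, rho = 0.92), Glrx (r = 0.87, rho = 0.85) and Gpx4 (r = 0.67, rho = 0.63) followed it as well. The adjusted permutation p was 6.4e-05 for each r and 6.9e-05 for each rho, the smallest reached over these relations. Without the 2 mice farthest from the median score, r was 0.97, 0.93, 0.86 and 0.71. The 4 members that differed among the treated groups were those with the highest r with this score, and also those with the highest r with the proliferation score.

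The same members had positive r with the proliferation score, 0.86 for Gclm, 0.78 for Gpx1, 0.72 for Glrx and 0.56 for Gpx4. Positive r with an adjusted p of at most 0.05 were found for 5 members with the erythroid, 5 with the proliferation and 6 with the platelet score.

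Most of the remaining members had their largest r with another list. Mgst1 followed the neutrophil score (r = 0.86, rho = 0.74, and 0.78 without the 2 farthest mice), and its r with the erythroid score was 0.03. G6pdx had positive r with the monocyte (0.61) and neutrophil (0.59) scores and a negative r with the T cell score (-0.65). Gsr and Gpx4 had their highest r with the platelet score (0.68 and 0.76). Each of these relations had an adjusted permutation p of 6.4e-05 for r. For Gclc the largest r was with the monocyte score (-0.40), and for Gss with the erythroid score (0.37). The r of Gsto1 ranged from -0.25 to 0.23 over the lists.

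**Figure D5:**
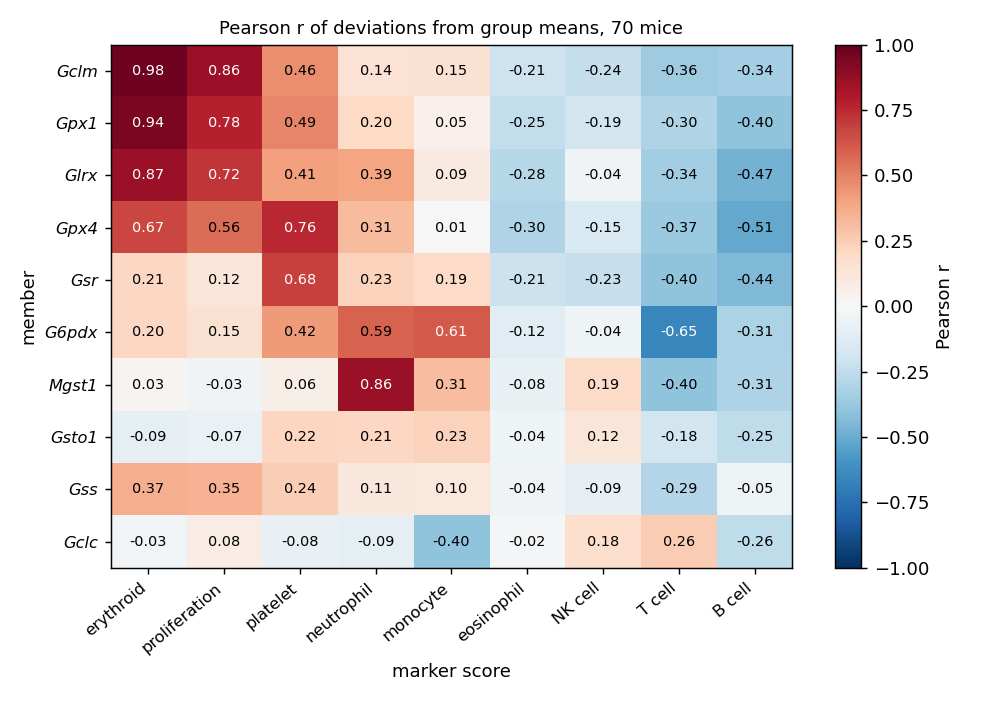
Pearson r between each member (rows) and each marker score (columns), over 70 mice after subtraction of group means, with r printed in each cell. Gclm, Gpx1 and Glrx had their highest r with the erythroid score (0.98, 0.94 and 0.87), Gpx4 with the platelet score (0.76, against 0.67 with the erythroid score), Mgst1 with the neutrophil score (0.86) and G6pdx with the monocyte and neutrophil scores (0.61 and 0.59).

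Within groups, the member pairs with the highest r were Gclm and Gpx1 (0.92), Gpx1 and Glrx (0.88) and Gclm and Glrx (0.82). The ligase subunits Gclm and Gclc had an r of -0.08 over the same 70 mice. Among the genes of the vst table most like Gclm were Marchf5 and St3gal5 (r = 0.97 for each). Those most like Gpx1 were Pink1, Prdx2, a peroxidase of red cells, and Ubb (0.96, 0.96 and 0.95), and those most like Gpx4 were Cyb5a, Myl6 and Serf2 (0.92, 0.92 and 0.90). Chac2, which encodes an enzyme that breaks glutathione down, was the gene most like Glrx (0.91), ahead of Gabarap and Ccni (0.90 for each).

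Mgst1 was most like S100a9, S100a8 and S100a6 (r = 0.89, 0.87 and 0.86), of which S100a8 and S100a9 are on the neutrophil list. G6pdx was most like Pgd (0.82), the next NADPH-forming enzyme of the pentose phosphate pathway, then Anxa2 and Pygl (0.80 and 0.75). Gsr was most like Plek, Litaf and Rac1 (0.78, 0.78 and 0.77), and Gsto1 was most like Emp1, Mal and Plet1 (0.90, 0.90 and 0.87). The closest genes of Gclc (Cdkn1b, 0.61) and Gss (Shld1, 0.55) had lower r. These correlations are descriptions over mice that share library composition.

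Of 62 other genes of glutathione metabolism, 42 were measured in the vst table. In HOCl against CTRL mice 9 of them rose and 0 fell (limma), with a median log2 fold change of 0.09 over the 42. Over all genes 4.79% were called higher, and 31 of 38 erythroid markers were. The 6 with the largest fold change were Glrx5, Hagh, Slc25a39, Gstm5, Chac2 and Mgst3. Glrx5, a mitochondrial glutaredoxin of iron-sulfur cluster assembly that haem synthesis needs, had a median of 12.26 (11.07 to 14.13) in CTRL and 13.67 (12.06 to 15.09) in HOCl mice (log2 fold change 1.36, SE 0.31, FDR 0.00869, limma). Hagh, the glyoxalase that releases glutathione, rose by 1.32 (SE 0.33, FDR 0.0155), and Slc25a39, the carrier that brings glutathione into mitochondria, rose by 1.09 (SE 0.26, FDR 0.011, limma). The transferases Gstm5 and Mgst3 rose by 1.03 (FDR 0.0178) and 1.01 (FDR 0.0141), and Chac2 rose by 1.03 (FDR 0.027, limma). Gstm5 belongs to a family of similar genes whose shared reads the counting could split.

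In E07 against HOCl mice, 9 of the 42 fell and 0 rose past both thresholds, with a median log2 fold change of -0.10. Over all genes 7.01% were called lower, and 34 of 38 erythroid markers were. Glrx5 fell by 1.46 (SE 0.26, FDR 0.000365), Hagh by 1.34 (SE 0.25, FDR 0.000608) and Chac2 by 1.19 (SE 0.22, FDR 0.000608, limma). Slc25a39 fell by 1.10 (FDR 0.000216), Mgst3 by 0.99 (FDR 0.000905) and Taldo1, of the pentose phosphate pathway, by 0.84 (FDR 0.000115, limma). By group of function, 2 of 4 glyoxalase and formaldehyde enzymes, 2 of 14 transferases, 2 of 7 genes of cysteine supply and turnover, 1 of 3 glutaredoxins, 1 of 8 NADPH genes, 1 of 4 transport genes and 0 of 2 other peroxidases were called lower. The balance of the list depended on the scaling. With total counts, 7 of the 42 were called higher and 11 lower in HOCl against CTRL mice, where 5132 of all 10508 genes were called lower. In E07 against HOCl mice 17 of the 42 were called higher and 6 lower, where 6558 of all genes were called higher. Glrx5, Hagh, Slc25a39, Chac2 and Mgst3 kept their direction and their call in both comparisons. With the erythroid covariate 0 of the 42 were called in either. In HOCl against CTRL mice, edgeR called 7 of them, Chac2 was called by neither edgeR (FDR 0.0756) nor DESeq2 (FDR 0.0645), and the fit with the mouse number as a block called 1. In D06 against CTRL mice 12 of the 42 were called higher (7.27% of all genes), and in E07 against D11 mice 9 were called lower (4.27% of all genes). The other 6 comparisons gave 0 calls among them by limma and by edgeR. At an unadjusted p under 0.05 (limma), these comparisons gave 1 to 14 of the 42, and 799 to 2095 of all 10508 genes. DESeq2 called 1 gene in D11 against CTRL, 1 in BPR21 against HOCl and 5 in BPR21 against CTRL mice. Among all genes it tested, DESeq2 called 139 higher and 39 lower, 116 and 140, and 346 and 127 in these comparisons.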

How the data were processed

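Whole-blood RNA was sequenced by the authors from mice of 6 groups. They trimmed adaptors with cutadapt, aligned reads to mm39 with STAR and counted them per gene with featureCounts, and versions are not given in the sources used here. The authors deposited raw counts (55416 genes, 71 mice) and vst values of DESeq2 on a log2 scale, after their filters (10508 genes, 70 mice). Groups were taken from the sample titles, and 0 columns lacked a sample. The members and lists were chosen with earlier results of these data known.

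Groups were compared on vst values in R 4.3.3 by limma 3.58.1, with the 2 groups of interest in the fit. Genes were called at an FDR of at most 0.05 and a fold of at least 1.3. Alternatives were edgeR 4.0.16 (TMM, at least 10 counts in at least 11 mice, or no filter) and DESeq2 1.42.0 on counts, all groups in 1 fit, limma on log2 of CPM plus 1 (total-count scaling), the FDR alone, an erythroid covariate, and the mouse number as a block. The block fit of 2 groups kept only mice whose number occurred in both. Of the vst genes, 7 could not be paired with a single count row and were left out of tests on counts. Fits without 1 mouse, edgeR on the mice of the vst table and within-library ratios were added after seeing the data. Permutation tests used Python 3.11.15 and numpy 2.4.6. The tests were tried on simulated data. Named genes were the members, at most 6 other glutathione genes called in each of 2 comparisons, the 3 genes most like each member (1 of them is not reported here), and Lgals3. Libraries of a group were compared in pairs, and none agreed within sampling noise. Coordinates were read from GENCODE vM39, which uses GRCm39 (mm39).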

Additional observations from a re-analysis of the deposited data

Results flagged for a closer look

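The effects of E07 and D11 against the same HOCl mice differed for 4 members in the direct test of the antibodies. The E07 minus D11 difference was -0.77 on the log2 scale for Gclm, -0.87 for Gpx1, -0.39 for Gpx4 and -0.62 for Glrx (limma), and 12 of 12 E07 mice lay below the D11 median for each gene. With all 6 groups in 1 fit, 0 members and 0 of all genes were called. Of 24 fits that left out 1 mouse, 24 retained the call of Gclm, 14 that of Gpx1, 14 that of Gpx4 and 7 that of Glrx. The erythroid share of counts was 8.01% ± 1.81 (SD, n = 12) in E07 and 10.5% ± 3.17 (n = 12) in D11 mice. Its part in these differences was not tested beyond the covariate fit, which called 0 members and 0 of all genes.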

How the results depend on the processing

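In HOCl against CTRL mice, 3 members were called, and 1 was called with edgeR on counts, with edgeR without a low-count filter, with DESeq2 and with edgeR on the mice of the vst table (added after seeing the data). The count was 0 with the erythroid covariate, 0 with the replicate block and 5 with total-count scaling, and it was 1 to 4 over fits without 1 mouse. In E07 against HOCl mice (4 members) it was 0 with the erythroid covariate and 4 to 4 without 1 mouse. In D06 against CTRL mice (4 members) it was 0 with the covariate and 4 to 4 without 1 mouse. In E07 against D11 mice (4 members) it was 0 with all 6 groups in 1 fit, 2 with total-count scaling, 0 with the covariate and 1 to 4 without 1 mouse. In that comparison the fit of all 6 groups and the covariate fit also called 0 of all genes. Where 0 members were called, DESeq2 called 1 in D11 against HOCl, 1 in D06 against HOCl, 1 in D11 against CTRL and 1 in BPR21 against CTRL mice. Over all genes it tested, DESeq2 called 63 higher and 91 lower, 70 and 80, 139 and 39, and 346 and 127 in these comparisons. The covariate gave 1 in D06 and 1 in BPR21 against HOCl mice (Gpx1 in both, 0.48 and 0.58). Over all genes it called 26 higher and 18 lower in D06 mice, and 99 higher and 126 lower in BPR21 mice. In BPR21 against CTRL mice, 2 were called with all 6 groups in 1 fit, 1 with total-count scaling and 2 with the replicate block, which also gave 2 in D11 against CTRL mice. Over all genes, these 3 fits called 281 higher and 125 lower, 9 and 668, and 431 and 103 in BPR21 against CTRL mice. The block called 107 genes higher and 8 lower in D11 against CTRL mice.

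Signs that turned in HOCl against CTRL mice were those of Mgst1 with edgeR (-0.013, and -0.014 without a filter), the covariate (-0.21), the replicate block (-0.0076) and total-count scaling (-0.44), and of Gss with DESeq2 (0.024). Under total-count scaling they were also Gsr (-0.16), Gpx4 (-0.12), Gsto1 (-0.12) and G6pdx (-0.17), and with the covariate Gpx1 (-0.31), Gpx4 (-0.034) and Glrx (-0.17). In E07 against HOCl mice they were Gss with DESeq2 (-0.0015), Gsr (0.22), Gpx4 (0.17), Gsto1 (0.35) and Mgst1 (0.24) under total-count scaling, and Gclc (-0.074), Gclm (0.014), Gpx1 (0.42) and Mgst1 (0.12) with the covariate. Glrx turned with the covariate in D06 against CTRL (-0.11) and E07 against D11 mice (0.021), and Gpx4 with total-count scaling in E07 against D11 mice (0.0057). Except for total-count scaling and the covariate, whose construction changes the scale or the question, the cause was not tested.

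Total-count scaling called 327 genes higher and 5132 lower in HOCl against CTRL mice, in place of 503 and 18, and 6558 higher and 324 lower in E07 against HOCl mice, in place of 92 and 737. In D06 against CTRL mice the split was 291 and 6748 in place of 764 and 64, and in E07 against D11 mice 4512 and 152 in place of 31 and 449. Same-numbered mice are different animals, so the numbers were not read as pairs. The mean correlation of their deviations was 0.010 to 0.146 over the comparisons, against -0.010 to 0.0005 for mice of other numbers. It was the higher of the 2 in each comparison, while the lowest single correlation was below 0 in each, from -0.42 to -0.07. What the number stands for is not stated, and shared variation by number was not tested beyond the replicate block. In HOCl against CTRL mice that block called 82 genes higher and 3 lower, in place of 503 and 18. Its fit held only the 10 numbers found in both groups, so it also rested on fewer mice. Over 6 groups, 5 members passed the F test, and the count stayed within 1.5 times under its alternatives, as did that over the 4 treated groups. Genes with few counts, such as Gss (median count 139 in CTRL mice), were measured with less precision. HOCl mouse 8 entered only tests on counts.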

Other observations

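HOCl mouse 8, which has counts only, was above the highest control for 0 of the 10 members and below the lowest control for 2, Gsr and Mgst1 (log2 CPM of 3.69 and 5.53). The share of all genes outside the control range was not counted. In this mouse 8 of the 10 members lay within the range of the other HOCl mice, among them Mgst1 (5.41 to 6.82). Gsr lay below that range (4.03 to 5.17).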
